A study of Mus musculus with 8 samples.

Results

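The transcripts described here encode 10 proteins that neutrophils store in their granules. They were taken by name from the 25006 mouse Ensembl gene identifiers of the count files by a rule that names them and uses no measured value, although earlier results of these data were known when they were chosen. All 10 were found. They form 2 classes: Mpo, Elane, Prtn3 and Ctsg encode proteins of the primary (azurophil) granules, and Ngp, Camp, Ltf, Lcn2, Mmp8 and Cd177 encode proteins of the granules that form later. A neutrophil precursor makes its granule proteins in steps. Transcripts for the primary granules are made mainly at the promyelocyte stage in bone marrow, those for the secondary (specific) and tertiary granules mainly in myelocytes and metamyelocytes, and a mature neutrophil carries the stored proteins with little transcript of the primary class. In tumours, granule transcripts are used as markers of neutrophil-lineage cells and of their stage of maturation.

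The samples were tumours of 4T1, a mouse triple-negative mammary carcinoma line from Balb/c mice, grown in the fat pad for at most 20 days in either NSG mice, which lack T, B and NK cells and keep myeloid cells, or immunocompetent Balb/c mice. The hosts are also different mouse strains, so immune status and strain cannot be told apart in the host comparisons. Each host carried tumours of 4 lines, giving 8 libraries and 4 groups of 2. The wild-type groups held the parental line and a line stably expressing vCas9. The CD95 knockout groups held knockout clones 54 and 69, made with CRISPR/Cas9 against Fas (CD95), a death receptor. The 2 libraries of a group were thus different lines and not repeats of 1 line, each knockout library was 1 clone, and p-values measure the spread between these lines; whether a library was made from 1 tumour or several is not given in the labels. Libraries held 8680070 to 19655945 counts. Fas was at 33.9 and 22.6 CPM (counts per 1000000 counts of a library, scaled by edgeR's TMM factors) in NSG wild type against 29.5 and 12.9 in NSG knockout, and at 51.6 and 46.9 CPM in the Balb/c wild-type pair against 27.1 and 33.7 in Balb/c knockout, with edgeR adjusted p = 0.628 and 0.225, so the knockout status rests on the labels. These bulk counts also include host cells that carry intact Fas. The 7 carcinoma epithelium markers were present in each library, at a summed 753.4 to 4284 CPM. Both ends of this range were Balb/c knockout libraries, with clone 54 the lowest and clone 69 the highest. The sums were 809.2 and 2111 CPM in Balb/c wild type and 1197 and 1594 CPM in NSG wild type. In NSG knockout they were 3517 CPM (clone 54) and 2344 CPM (clone 69). The part of tumour-cell content in the granule transcripts was not tested.

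The windows from 250 bases before to 50 bases after each RefSeq start (GRCm38.p6) were searched on both strands for 2 sequence motifs of myeloid factors: GAGGAAG, a core bound by PU.1-type factors, and TTGCNNAA, a core bound by C/EBP-type factors, of which C/EBP epsilon acts in the later granule stages. The PU.1-type letters were in the windows of 4 of 4 primary members and of 2 of 6 later members (Lcn2 and Mmp8). The C/EBP-type letters were in 0 of 4 primary and 4 of 6 later windows (Ngp, Ltf, Lcn2 and Mmp8), and Camp and Cd177 held neither. Over all 32851 windows of this length, 13.6% held the PU.1-type and 10.8% the C/EBP-type letters. A match is a description of the letters and not of binding. The stretches below, read on the gene's own strand, hold no annotated exon and show the PU.1-type letters in capitals for Mpo and Prtn3 and the C/EBP-type letters in capitals for Ngp and Ltf. They are shown because Mpo and Prtn3 are the primary members with enough counts to test and Ngp and Ltf are later members with a C/EBP-type match outside exons and different values in Balb/c knockout, and they lie on the plus strand at chr11:87793534-87793580, chr10:79879417-79879613, chr9:110419558-110419746 and chr9:111019042-111019270.
Mpo: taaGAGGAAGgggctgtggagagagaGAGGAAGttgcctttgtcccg
Prtn3: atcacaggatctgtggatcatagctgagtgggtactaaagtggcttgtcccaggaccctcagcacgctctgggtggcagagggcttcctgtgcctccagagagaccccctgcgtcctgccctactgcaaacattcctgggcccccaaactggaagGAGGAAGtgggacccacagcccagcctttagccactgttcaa
Ngp: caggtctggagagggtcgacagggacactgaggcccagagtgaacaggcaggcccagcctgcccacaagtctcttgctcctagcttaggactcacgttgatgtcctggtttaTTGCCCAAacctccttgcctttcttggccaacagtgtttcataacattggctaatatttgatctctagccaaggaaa
Ltf: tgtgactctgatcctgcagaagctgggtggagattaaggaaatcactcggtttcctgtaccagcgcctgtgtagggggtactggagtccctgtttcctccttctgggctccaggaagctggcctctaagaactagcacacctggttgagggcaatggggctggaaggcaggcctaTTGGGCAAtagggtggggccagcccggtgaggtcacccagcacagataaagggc
The pair of Mpo matches began 247 and 224 bases before the start and the Prtn3 match 95 bases before it. The printed Ngp match began 138 bases and the Ltf match 75 bases before the start. A second Ngp match, 11 bases before the RefSeq start, lies in an exon of the GENCODE annotation and is not printed.

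All 10 are protein-coding genes (GENCODE M21, GRCm38). Mpo spans chr11:87793581-87804413 and Elane chr10:79886247-79888215, both on the plus strand, and Ctsg spans chr14:56099881-56102574 on the minus strand. Of the later members, Ngp (chr9:110419747-110423012), Ltf (chr9:111019271-111042767) and Mmp8 (chr9:7558456-7568485) are on the plus strand. Camp (chr9:109847379-109849617), Lcn2 (chr2:32384633-32388252) and Cd177 (chr7:24743983-24760311) are on the minus strand.

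The later granule transcripts were mostly abundant and the primary ones scarce. Camp was an exception: its group mean was below that of Prtn3 in NSG wild type and in Balb/c knockout. The values were 1.998 against 2.809 and 0.481 against 0.552 CPM per kb of exon. Per kilobase of exon, the group means of the primary members ran from 0 to 2.81 CPM per kb with a median of 0.351, and those of the later members from 0.481 to 132.7 CPM per kb with a median of 12.6. Elane, the gene of neutrophil elastase, had 17 counts over the 8 libraries, and Ctsg, the gene of cathepsin G, had 42, so both failed the filter on low counts. Mpo (130 counts) passed it with 3 libraries above the filter's level, namely both Balb/c wild-type libraries and 1 of NSG wild type. The 8 members tested were therefore Mpo and Prtn3 of the primary class and all 6 of the later class, among 15310 genes tested. A library's floor of 3 counts lay between 0.159 and 0.321 CPM, and intervals given for single counts cover counting error only. In bulk tumours, fewer cells of a type and less RNA per cell cannot be told apart.

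**Figure D1:**
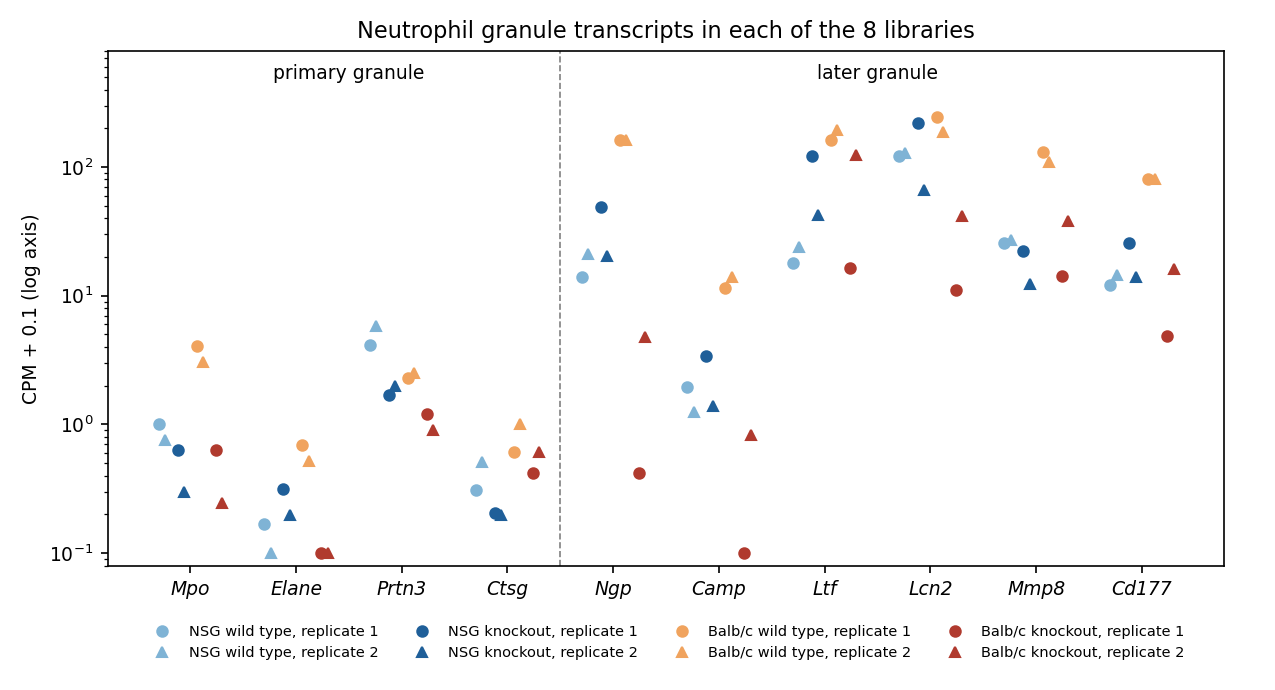
Level of each granule member in CPM + 0.1 on a log axis, with circles for the parental line or clone 54 (replicate 1) and triangles for the vCas9 line or clone 69 (replicate 2), coloured by host and CD95 status. All 6 later members have their highest group mean in Balb/c wild type, Prtn3 has its highest in NSG wild type, and the clone 54 tumour in Balb/c is the lowest library for each later member except Mmp8.

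In wild-type tumours, 6 of the 8 tested members were higher in Balb/c than in NSG hosts: Mpo and 5 of the 6 later members (Ngp, Camp, Ltf, Mmp8, Cd177). Of all genes tested, 15.3% were higher in this comparison (edgeR adjusted p under 0.05). Libraries did not overlap, with Balb/c higher, for 7 of the 8 tested members, all but Prtn3, against 35.4% of all genes. Mpo passed the filter on low counts mainly through the Balb/c libraries, where it is high, so its place in these counts and in the median below is no support; without it 5 of 7 tested members were higher. The median log2 fold change was 2.82 over the 6 later members, 0.53 over Mpo and Prtn3, and -0.08 over all genes.

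Ngp, the neutrophilic granule protein, a cathelicidin-family protein of secondary granules, had 13.8 and 21.1 CPM in NSG wild type and 161.3 and 163.1 CPM in Balb/c wild type. The groups were far apart and both Balb/c libraries were nearly equal. The log2 difference was 3.22 (SE 0.78; adjusted p = 0.0200, edgeR). Camp, which encodes the cathelicidin precursor of the antimicrobial peptide CRAMP, went from 1.87 and 1.16 CPM to 11.4 and 14.0 CPM. Its groups did not overlap either, and the log2 difference was 3.05 (SE 0.84; adjusted p = 0.0293, edgeR).

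Ltf encodes lactoferrin, the iron-binding protein of secondary granules. It was at 17.8 and 23.8 CPM in NSG wild type and at 160.8 and 194.2 CPM in the Balb/c wild-type pair, a log2 difference of 3.10 (SE 0.87; adjusted p = 0.0318, edgeR). Both Balb/c libraries lay above both NSG libraries, as they did for the remaining 3 later members. Mmp8, neutrophil collagenase, was at 25.6 and 27.0 CPM against 130.9 and 109.1 CPM, a log2 difference of 2.19 (SE 0.45; adjusted p = 0.0117, edgeR). Cd177, a surface glycoprotein that is also kept in secondary granules, was at 12.1 and 14.5 CPM against 80.5 and 80.0 CPM, a log2 difference of 2.59 (SE 0.51; adjusted p = 0.0104, edgeR). Lcn2 encodes lipocalin 2, which binds bacterial siderophores and is made by epithelial cells and macrophages as well as neutrophils. Its values of 122.7 and 128.4 CPM in NSG and 242.5 and 187.0 CPM in Balb/c gave a log2 difference of 0.77 (SE 0.65; adjusted p = 0.377, edgeR).

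Among the primary members, Mpo, which encodes the peroxidase that makes hypochlorous acid, had 13 and 8 counts (0.900 and 0.663 CPM) in NSG wild type and 47 and 43 counts (3.99 and 2.98 CPM) in Balb/c wild type. Both Balb/c libraries were higher, with a log2 difference of 2.13 (SE 0.60; adjusted p = 0.0318, edgeR), but Mpo entered the test mainly through the Balb/c libraries. Elane had 1 and 0 counts in NSG and 7 and 6 in Balb/c, a ratio of 13.2 with a 95% counting interval of 1.98 to 559. Ctsg had 3 and 5 counts against 6 and 13, a ratio of 2.40 with a counting interval of 1.004 to 6.35. Prtn3, which encodes proteinase 3, stood apart in sign: it had 58 and 69 counts (4.02 and 5.72 CPM) in NSG wild type and 26 and 35 counts (2.21 and 2.43 CPM) in Balb/c wild type. Its NSG libraries lay above its Balb/c libraries, with a log2 difference of -1.06 (SE 0.37; adjusted p = 0.0609, edgeR).

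The host calls in wild type did not hold with 1 wild-type library left out, which leaves a group of 1 library whose spread is taken from the other groups. Without the parental or the vCas9 library of NSG, 0 members passed, without the parental library of Balb/c 1 passed (Cd177), and without the vCas9 library of Balb/c 2 passed (Mmp8, Cd177). The share of all genes called in either direction went from 31.5% with all libraries to 5.45%, 8.0%, 8.16% and 9.44% in these fits. The log2 values stayed close to those above, from 2.93 to 3.54 for Ngp and from 2.05 to 2.38 for Mmp8 over these 4 fits. With the line as a block, which leaves 2 residual degrees of freedom, 2 passed (Mpo, Cd177), with 13.5% of all genes called. The log2 values there were 3.25 for Ngp, 3.07 for Camp and 3.10 for Ltf.

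**Figure D2:**
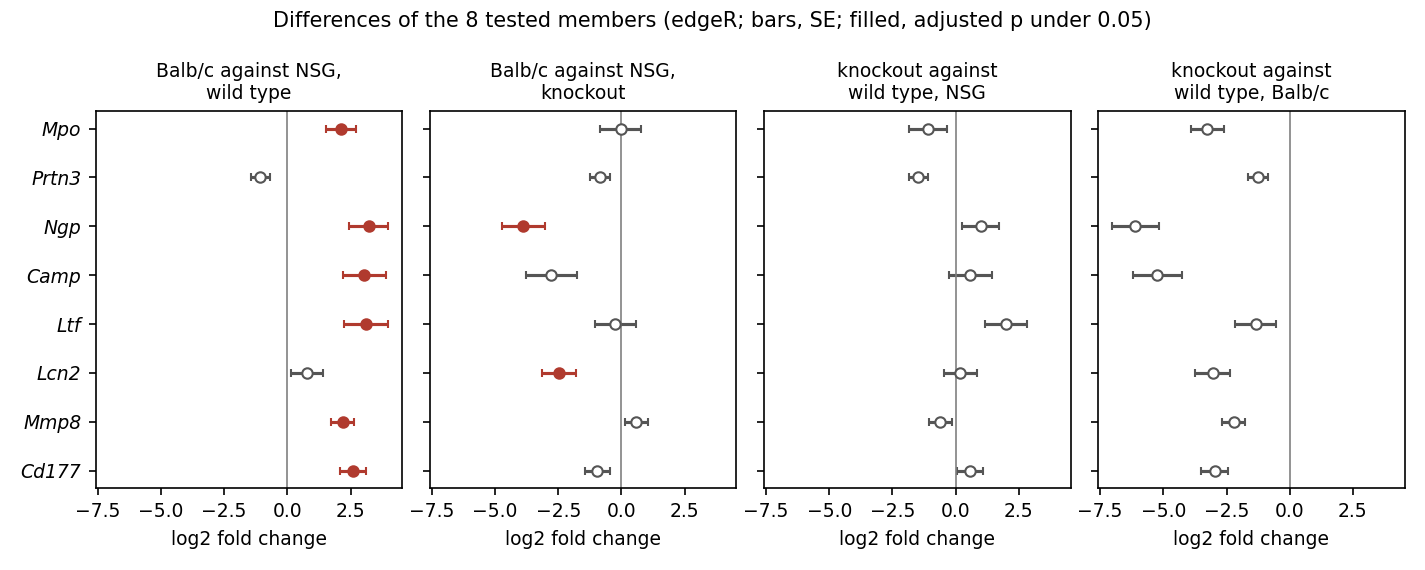
Log2 fold change of each of the 8 tested members (points) with its SE (bars) in 4 comparisons, filled where the edgeR adjusted p was under 0.05. In wild type 6 members were called higher in Balb/c, in knockout Ngp and Lcn2 were called lower in Balb/c, and no member was called in either knockout comparison, although each of the 8 had a negative value in Balb/c.

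In knockout tumours fewer members passed in the host comparison. Of the 8 tested members, Ngp and Lcn2 were lower in Balb/c than in NSG, against 15.4% of all genes that were lower (edgeR adjusted p under 0.05), and 0 were higher. Libraries did not overlap, with Balb/c lower, for 4 members (Prtn3, Ngp, Camp, Lcn2), against 31.9% of all genes. The median log2 fold change was -1.71 over the later members, -0.44 over Mpo and Prtn3 and 0.02 over all genes.

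Ngp had 49.2 and 20.2 CPM in NSG knockout (clones 54 and 69) and 0.317 and 4.67 CPM in Balb/c knockout, that is 6 and 64 counts. Both Balb/c libraries were under both NSG libraries, with a log2 difference of -3.88 (SE 0.87; adjusted p = 0.0130, edgeR). Lcn2 had 220.9 and 66.3 CPM in NSG knockout and 10.95 and 41.4 CPM in Balb/c knockout, a log2 difference of -2.46 (SE 0.68; adjusted p = 0.0290, edgeR). Within NSG clone 54 was the higher of the clones for Ngp and Lcn2, and within Balb/c it was the lower. Camp had 31 and 13 counts (3.32 and 1.29 CPM) against 0 and 10 counts (0 and 0.729 CPM), a log2 difference of -2.77 (SE 1.01; adjusted p = 0.0712, edgeR). Its clone 54 tumour in Balb/c had no count.

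Ltf, Mmp8 and Cd177 overlapped between the hosts in knockout tumours, with log2 fold changes of -0.24, 0.58 and -0.95 (edgeR adjusted p = 0.848, 0.353 and 0.189). Mpo had 5 and 2 counts against 10 and 2, and its log2 difference was -0.04 (SE 0.81; adjusted p = 0.980, edgeR). Prtn3 was at 1.61 and 1.89 CPM in NSG knockout and at 1.11 and 0.802 CPM in Balb/c knockout, with a log2 difference of -0.85 (SE 0.41; adjusted p = 0.151, edgeR). Its groups did not overlap. Elane had 2 and 1 counts in NSG and 0 and 0 in Balb/c, both at or under the floor, and Ctsg had 1 and 1 counts against 6 and 7, a ratio of 3.87 with a counting interval of 0.875 to 35.3. Without the clone 54 library of NSG 0 members passed, without either NSG wild-type library 1 passed (Ngp), and without the clone 69 library of Balb/c 5 passed (Ngp, Camp, Ltf, Lcn2, Cd177). Without the clone 54 library of Balb/c, Ngp was lower, Lcn2 no longer passed, and Mmp8 was higher in Balb/c (1.11; adjusted p = 0.0372, edgeR). The share of all genes called in either direction was 31.1% with all libraries and between 15.6% and 29.6% with 1 left out. With the line as a block, which leaves 2 residual degrees of freedom, 0 members passed and 18.8% of all genes. Over all alternatives, the line block included, the log2 value ran from -6.72 to -2.92 for Ngp and from -3.71 to -1.35 for Lcn2. That of Camp ran from -7.90 to -1.66. These values kept their sign, and their size depended on the setting.

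Within Balb/c hosts each tested member was lower in knockout than in wild-type tumours, and the libraries did not overlap for any of the 8, against 29.3% of all genes whose libraries did not overlap with knockout lower. None passed the adjusted threshold: 0 of 8 members and 0.176% of all genes were called (edgeR adjusted p under 0.05). At an unadjusted edgeR p under 0.05, 7 members were lower, all but Ltf, against 14.3% of all genes, and DESeq2 called 6 of 8 lower (Mpo, Ngp, Camp, Lcn2, Mmp8 and Cd177) against 10.4% of all genes. Mpo entered these counts through the filter mainly by its Balb/c wild-type level, so it had to be lower in knockout to some degree and supports nothing here. The median log2 fold change was -3.01 over the later members, -2.26 over Mpo and Prtn3 and 0.06 over all genes.

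Ngp went from 161.3 and 163.1 CPM in Balb/c wild type to 0.317 CPM (clone 54) and 4.67 CPM (clone 69). Its log2 difference was -6.10 (SE 0.93; adjusted p = 0.0564, edgeR). Camp, with 134 and 202 counts against 0 and 10, had a log2 difference of -5.24 (SE 0.98; adjusted p = 0.0564, edgeR). Both genes lie on chromosome 9, with 570.1 kb between them, and Ltf lies 596.3 kb beyond Ngp on the same chromosome. Ltf was much less reduced, at 160.8 and 194.2 CPM against 16.2 CPM (clone 54) and 124.2 CPM (clone 69), a log2 difference of -1.34 (SE 0.81; adjusted p = 0.289, edgeR). Without the clone 69 library the values were -8.95 for Ngp, -10.36 for Camp and -3.45 for Ltf, and without the clone 54 library -5.22, -4.21 and -0.62, where the Camp value without clone 69 sets a library of no counts against wild type and depends on the prior count. In CPM the clones were further apart for Ltf than the clone 69 tumour was from either wild-type line.

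Lcn2 was at 242.5 and 187.0 CPM in the Balb/c wild-type pair and at 10.95 and 41.4 CPM in Balb/c knockout, a log2 difference of -3.04 (SE 0.70; adjusted p = 0.0577, edgeR). Mmp8 was at 130.9 and 109.1 CPM against 14.1 and 37.9 CPM, a log2 difference of -2.21 (SE 0.45; adjusted p = 0.0564, edgeR). Cd177 was at 80.5 and 80.0 CPM against 4.76 and 15.9 CPM, a log2 difference of -2.97 (SE 0.52; adjusted p = 0.0564, edgeR). Without the clone 69 library the values were -4.28 for Lcn2, -3.08 for Mmp8 and -4.065 for Cd177. Without the clone 54 library they were -2.48, -1.76 and -2.44. For each of the 6 later members clone 54 was below clone 69, and both were below both wild-type lines.

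Mpo and Prtn3 ordered the clones the other way, on few counts: 10 against 2 for Mpo and 21 against 11 for Prtn3 (clones 54 and 69). No counting interval was taken for this order, and Ctsg ordered the clones as the later members did. Mpo had 47 and 43 counts in Balb/c wild type and 10 and 2 counts in knockout (0.529 CPM (clone 54) and 0.146 CPM (clone 69)), a log2 difference of -3.26 (SE 0.64; adjusted p = 0.0564, edgeR). Prtn3 was at 2.21 and 2.43 CPM against 1.11 and 0.802 CPM, a log2 difference of -1.26 (SE 0.40; adjusted p = 0.0887, edgeR). Without the clone 54 library the values were -4.58 for Mpo and -1.62 for Prtn3, and without the clone 69 library -2.69 and -1.05. For both, clone 54 was the higher of the clones, and Mpo had passed the filter mainly through the Balb/c wild-type libraries, where it is high. Elane had 7 and 6 counts in wild type and 0 and 0 in knockout, at least 2.68-fold lower when each knockout library is set at its floor of 3 counts. Ctsg had 6 and 13 counts against 6 and 7 (0.317 CPM for clone 54 and 0.511 CPM for clone 69), and its ratio of 0.550 had a counting interval of 0.250 to 1.17. Without the clone 69 library of Balb/c, 7 of 9 members tested passed (all but Prtn3 and Ctsg), with 24.8% of all genes called in either direction in that fit, and without any other single library 0 passed.

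In NSG hosts the knockout comparison called 0 of 8 members and 0.0131% of all genes (edgeR adjusted p under 0.05). At an unadjusted edgeR p under 0.05, 2 members passed (Prtn3 lower and Ltf higher), against 14.0% of all genes in either direction, and DESeq2 called 0 members and 2.41% of all genes. Mpo and Prtn3 were negative and 5 of the 6 later members positive, with medians of -1.28 and 0.58 against 0.01 over all genes, and the difference between the classes was not tested. Without the clone 54 library of NSG the later values were 0.21 for Ngp, -0.24 for Camp, 1.03 for Ltf, -0.92 for Lcn2, -1.11 for Mmp8 and 0.06 for Cd177, so the sign of the class rests on that library. Prtn3 was at 4.02 and 5.72 CPM in wild type and 1.61 and 1.89 CPM in knockout, without overlap, a log2 difference of -1.47 (SE 0.39; adjusted p = 0.232, edgeR). Mpo had 13 and 8 counts against 5 and 2, also without overlap, with a log2 difference of -1.09 (SE 0.74; adjusted p = 0.524, edgeR). Ctsg had 3 and 5 counts against 1 and 1 (ratio 0.342, counting interval 0.0353 to 1.71), and Elane 1 and 0 counts against 2 and 1 (ratio 4.10, counting interval 0.329 to 215.2).

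Ltf was higher in both NSG knockout tumours, at 122.7 CPM (clone 54) and 42.6 CPM (clone 69) against 17.8 and 23.8 CPM in wild type. The log2 difference was 1.99 (SE 0.84; adjusted p = 0.347, edgeR). For Ngp, Camp, Lcn2 and Cd177 clone 54 lay above both wild-type libraries while clone 69 lay among or below them. Their log2 fold changes were 0.99, 0.59, 0.19 and 0.57 (edgeR adjusted p = 0.565, 0.783, 0.912 and 0.623). Mmp8 was the later member with a negative value, at 22.4 and 12.2 CPM against 25.6 and 27.0 CPM, a log2 difference of -0.61 (SE 0.45; adjusted p = 0.559, edgeR).

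The knockout effect was compared between hosts by an interaction term, which sets the effect in Balb/c against that in NSG. It called 0 of 8 members and 0.0% of all genes (edgeR adjusted p under 0.05). At an unadjusted edgeR p under 0.05 all 6 later members had a more negative effect in Balb/c, against 10.1% of all genes, and DESeq2 called 4 of them (Ngp, Camp, Lcn2, Cd177) against 4.13% of all genes. The difference was -7.10 for Ngp (SE 1.17), -5.82 for Camp (SE 1.30) and -3.55 for Cd177 (SE 0.72), with edgeR adjusted p = 0.0778, 0.0922 and 0.0866. It was -3.33 for Ltf, -3.24 for Lcn2 and -1.60 for Mmp8 (edgeR adjusted p = 0.161, 0.122 and 0.188). The primary members had -2.17 for Mpo (SE 1.01) and 0.21 for Prtn3 (SE 0.56), with edgeR adjusted p = 0.249 and 0.851. Ltf alone of the 8 had both knockout libraries above both wild-type libraries in NSG and both below in Balb/c, a pattern that 7.14% of all genes showed. Without the clone 69 library of Balb/c, all 6 later members passed in this comparison, with 15.1% of all genes called in that fit.

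Summed over the class, the 6 later members came to 193.9 and 215.9 CPM in NSG wild type, 444.2 CPM (clone 54) and 156.5 CPM (clone 69) in NSG, 787.4 and 747.5 CPM in Balb/c wild type, and 46.3 CPM (clone 54) and 224.8 CPM (clone 69) in Balb/c. Clone 54 thus gave the highest later sum in NSG and the lowest in Balb/c. The 4 primary members came to 5.19 and 6.79, 2.46 and 2.29, 7.30 and 6.72, and 1.96 and 1.46 CPM in the same order. By group that is 5.99 ± 1.1, 2.37 ± 0.123, 7.01 ± 0.412 and 1.71 ± 0.353 CPM (SD, n = 2). The primary sum thus overlapped between the wild-type tumours of both hosts and was lower in all 4 knockout libraries than in all 4 wild-type libraries. The share of all genes with this pattern was not computed, and single members did not all follow it. Elane had 1 and 0 counts in NSG wild type against 2 and 1 in NSG knockout, and Ctsg overlapped in Balb/c. The make-up of the sum differed: Prtn3 supplied 77.3% and 84.1% of it in NSG wild type and 30.2% and 36.1% in Balb/c wild type, while Mpo supplied 17.3% and 9.76% in NSG and 54.7% and 44.3% in Balb/c. Without Prtn3 the primary sum was 1.127 ± 0.0710 CPM in NSG wild type and 4.70 ± 0.565 CPM in Balb/c wild type, and 0.627 ± 0.324 and 0.751 ± 0.134 CPM in the knockout groups of NSG and Balb/c (SD, n = 2).

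**Figure D3:**
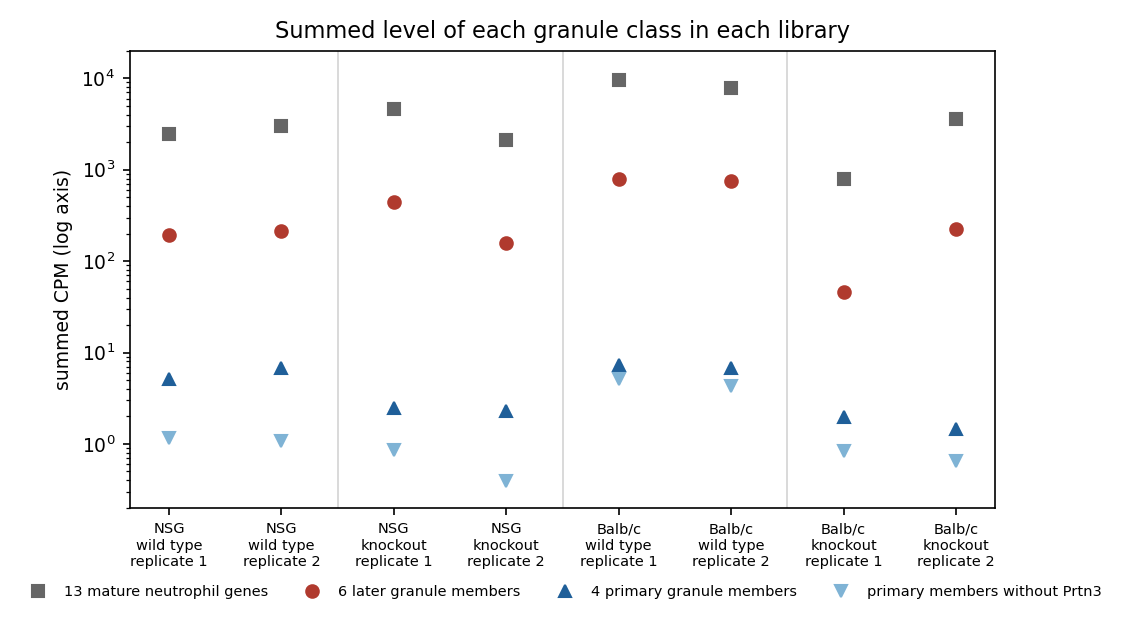
Summed CPM per library on a log axis for 13 mature neutrophil genes, the 6 later members, the 4 primary members and the primary members without Prtn3. The later sum lies below that of the mature neutrophil genes in each library, and the primary sum is between 5.19 and 7.30 CPM in all 4 wild-type libraries and between 1.46 and 2.46 CPM in all 4 knockout libraries. The share of all genes with such a separation was not computed, and Elane and Ctsg did not follow it in both hosts.

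The later sum exceeded the primary sum 37.3-fold and 31.8-fold in NSG wild type, 180.5-fold and 68.4-fold for clones 54 and 69 in NSG, 107.8-fold and 111.2-fold in Balb/c wild type, and 23.7-fold and 154.1-fold for clones 54 and 69 in Balb/c. In log2 units the ratio was 5.11 ± 0.16, 6.80 ± 0.99, 6.77 ± 0.03 and 5.92 ± 1.91 by group (SD, n = 2). Both Balb/c wild-type libraries had a higher ratio than both NSG wild-type libraries, but this rests on Prtn3, whose counts are uncertain. Without Prtn3 the later sum exceeded the primary sum 164.7-fold and 200.5-fold in NSG wild type and 154.5-fold and 174.0-fold in Balb/c wild type, which overlap. It did so 518.9-fold and 393.5-fold for clones 54 and 69 in NSG and 54.8-fold and 342.4-fold in Balb/c. The clone 54 tumour in Balb/c had the lowest ratio with and without Prtn3. The wild-type overlap without Prtn3 depends in turn on Lcn2, which weighs unequally in the later sum. Its group mean was 125.6 CPM of a mean later sum of 204.9 CPM in NSG wild type. In Balb/c wild type it was 214.7 of 767.4 CPM.

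A list of 13 genes of mature neutrophils, among them S100a8, S100a9, Cxcr2 and Ly6g, served to set the later members against the neutrophils present. In Balb/c hosts 13 of 13 were lower in knockout than in wild type, with 0 called and a median log2 fold change of -1.55 against -3.01 for the later members. In wild type 12 of 13 were higher in Balb/c, of which 3 passed (Retnlg, Mrgpra2b and G0s2, with log2 fold changes of 3.33, 2.50 and 2.14). In knockout Retnlg was higher in Balb/c (2.67) and Fpr1, a formyl peptide receptor, was lower (-2.80), both past the edgeR threshold. Of all genes tested, 0.176% were called in the knockout comparison within Balb/c. In the host comparisons 15.3% were called higher in wild type, and 15.7% higher and 15.4% lower in knockout. The log2 ratio of the later sum to the sum of this list lay between -4.08 and -3.38 in the 8 libraries, and both Balb/c knockout libraries were the lowest (-4.08 and -4.01). In such sums abundant genes weigh most. With each gene weighted equally, the mean of log2(CPM + 0.1) over the later members minus that over the list was -2.23 and -2.50 in NSG wild type, -2.06 and -1.95 in NSG knockout, -1.59 and -1.42 in the wild-type pair of Balb/c, and -3.15 (clone 54) and -2.95 (clone 69) in Balb/c knockout. On this measure too both Balb/c knockout libraries were below the other 6. The value of clone 54 depends on the added 0.1, since Camp had 0 counts there.

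The individual later members did not keep fixed proportions to that list. Per 1000 CPM of the 13 genes, Ngp had 5.59 and 7.09 CPM in NSG wild type, 10.6 and 9.44 in NSG knockout, 16.9 and 20.9 in Balb/c wild type, and 0.404 and 1.29 in Balb/c knockout. Its Balb/c knockout libraries were the lowest 2 of the 8 on this scale as on the CPM scale. Camp had 0.758 and 0.389, 0.715 and 0.605, 1.19 and 1.80, and 0 and 0.201 in the same order, also highest in Balb/c wild type and lowest in Balb/c knockout. Ltf had 7.21 and 7.97, 26.4 and 19.9, 16.8 and 24.9, and 20.6 and 34.3. On this scale Ltf was low in the NSG wild-type libraries and not in Balb/c knockout.

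Lcn2 had 49.7 and 43.1 CPM per 1000 CPM of the list in NSG wild type, 47.6 and 31.0 in NSG knockout, 25.4 and 24.0 in Balb/c wild type, and 13.9 and 11.4 in Balb/c knockout. Each NSG library lay above each Balb/c library. Mmp8 had 10.4 and 9.06, 4.82 and 5.72, 13.7 and 14.0, and 18.0 and 10.5, lowest in NSG knockout. Cd177 varied least, between 4.39 and 10.3, with both Balb/c wild-type libraries highest. These ratios are descriptions and were not tested.

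**Figure D4:**
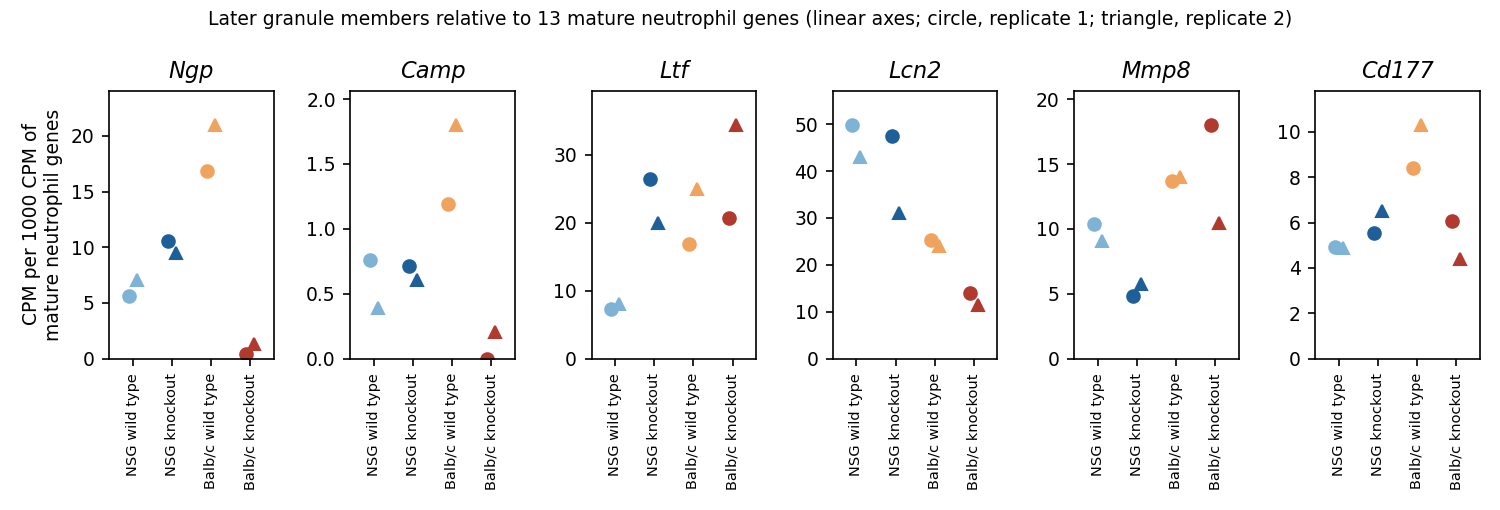
CPM of each later member per 1000 CPM of 13 mature neutrophil genes (linear axes starting at 0), by host and CD95 status, with circles for replicate 1 and triangles for replicate 2. Ngp and Camp are lowest in Balb/c knockout, Ltf is lowest in NSG wild type, and Lcn2 is higher in NSG than in Balb/c in each library.

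Prtn3 is the member that went its own way, and its counts are uncertain. It spans chr10:79874476-79883174 on the plus strand of GRCm38 (GENCODE M21) and overlaps Plppr3, a phospholipid phosphatase-related gene on the opposite strand, and the strand setting of the counting is not given in the sources used here. Plppr3 had 11.7 and 14.2 CPM in NSG wild type, 6.42 and 8.06 in NSG knockout, 7.56 and 7.55 in Balb/c wild type, and 5.29 and 8.10 in Balb/c knockout. It was highest where Prtn3 was highest, in the NSG wild-type libraries, and its part in the Prtn3 values was not tested. Elane begins 3.1 kb beyond the end of Prtn3 on the same strand. The other 9 members overlap no other counted gene.

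Of 20 further granule genes, 16 were tested. None passed in either knockout comparison (edgeR adjusted p under 0.05), 7 were higher and 1 lower in Balb/c than in NSG in wild type, and 9 were higher and 4 lower in knockout. Of all genes tested, 15.3% were higher and 16.2% lower in the wild-type host comparison, and 15.7% and 15.4% in the knockout one. Mmp25, a membrane-bound protease of neutrophils, and Pglyrp1, a peptidoglycan recognition protein of specific granules, led in wild type with log2 fold changes of 4.51 (SE 0.68) and 3.73 (SE 0.48). In knockout Mmp25 was still higher in Balb/c (3.48, SE 0.67), as were Adam8 (3.03) and Cybb (2.60), which macrophages also express, whereas Wfdc21 was lower (-2.27, SE 0.56). Mmp25 ranged from 3.88 to 13.1 CPM over NSG, with 170.8 and 218.7 in Balb/c wild type and 45.1 and 143.6 in Balb/c knockout. Unlike Ngp and Camp, it was higher in both Balb/c knockout libraries than in any NSG library.

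Of 8 regulators of granulocyte formation, 0 passed in either knockout comparison (edgeR adjusted p under 0.05), 5 were higher and 1 lower in Balb/c in wild type (all genes: 15.3% and 16.2%), and 4 were higher and 1 lower in knockout (all genes: 15.7% and 15.4%). Gfi1, a repressor needed for neutrophil differentiation, had 1 to 5 counts in the NSG libraries and 44 to 48 in the Balb/c libraries. Its log2 fold changes were 3.71 (SE 0.56) in wild type and 3.75 (SE 0.61) in knockout. Gfi1 passed the filter on low counts through the Balb/c libraries, where it is high, so its place among the genes called higher is no support. Its NSG counts lay near or under the floor of 3 counts, so the sizes of these fold changes are uncertain. Cebpe, which encodes C/EBP epsilon, was at 0.963 and 0.497 CPM in NSG knockout and 8.46 and 11.8 CPM in Balb/c knockout, a log2 difference of 3.79 (SE 0.64; adjusted p = 0.00411, edgeR). It was highest in the group where Ngp and Camp were lowest. Csf3, the gene of G-CSF, the main growth factor of neutrophil production, was at 176.9 and 105.9 CPM in NSG wild type, 42.5 and 15.9 in NSG knockout, 32.9 and 30.5 in Balb/c wild type, and 4.13 and 8.32 in Balb/c knockout. It was lower in Balb/c in both wild type and knockout (-2.16, SE 0.49, and -2.24, SE 0.52). Its knockout log2 fold changes of -2.28 in NSG and -2.36 in Balb/c had edgeR adjusted p = 0.193 and 0.0569. Csf3r, its receptor, was higher in Balb/c in wild type (1.95, SE 0.50).

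Genes of eosinophils, another granulocyte, moved with the host as well. The 5 eosinophil genes summed to 4.22 and 9.94 CPM in NSG wild type, 33.1 and 27.8 in NSG knockout, 298.6 and 375.5 in the wild-type pair of Balb/c, and 331.3 (clone 54) and 612.9 (clone 69) in Balb/c knockout. All 5 were higher in Balb/c in both host comparisons (edgeR adjusted p under 0.05). Of all genes, 15.3% were higher in wild type and 15.7% in knockout. Epx had 0 counts in each NSG library, Il5ra 0 to 3 and Prg2 0 to 7. Those genes passed the filter mainly through the Balb/c libraries, where they are high, so their place in this count is no support. Ccr3, the eotaxin receptor, had 16 to 34 counts in the NSG libraries. Its log2 values were 6.86 (SE 0.40) in wild type and 6.15 (SE 0.38) in knockout. Mast cell and proliferation genes moved with the host too, mostly lower in Balb/c. Of 6 mast cell genes, 4 were called lower and 1 higher in wild type, and 4 lower in knockout. Of 6 proliferation genes, 5 were called lower in wild type and 6 in knockout (all genes: 16.2% and 15.4%). The part of eosinophils, mast cells or proliferation in the host differences of the members, the further granule genes and the regulators was not tested.

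Sums of blood and macrophage markers also differed between the libraries. The 8 erythroid and platelet genes summed to 1276 and 1623 CPM in NSG wild type, 3482 CPM (clone 54) and 1910 CPM (clone 69) in NSG, 1927 and 1790 CPM in Balb/c wild type, and 407 CPM (clone 54) and 1641 CPM (clone 69) in Balb/c. Clone 54 was thus the highest library in NSG and the lowest in Balb/c, as it was for the later sum, while clone 69 in Balb/c lay near the wild-type pair, unlike the later sum. The 9 macrophage genes went the opposite way in Balb/c. They summed to 3902 and 4686 CPM in NSG wild type, 2788 and 3385 CPM in NSG knockout, 3230 and 3421 CPM in Balb/c wild type, and 15039 CPM (clone 54) and 6372 CPM (clone 69) in Balb/c knockout. Among the erythroid genes, Hba-a2 had 0 to 2 counts in the NSG libraries and 459 to 1821 in the Balb/c libraries, and the cause was not tested. The part of blood content or of macrophage content in the members' values was not tested.

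The genes whose log2 CPM followed the members most closely were ranked among 14172 genes over the 8 libraries, as a description. For the later members these were Ifitm1 (Pearson r = 0.994), Adgrg3 (0.988), Asprv1 (0.988), S100a8 (0.988) and Trim30b (0.987). Ifitm1, an interferon-induced membrane protein, was at 295.6 and 268.3 CPM in the Balb/c wild-type pair and at 37.0 CPM (clone 54) and 103.2 CPM (clone 69). For the primary members they were Snx18 (0.960), Pxk (0.944), Foxn3 (0.942), Pde8a (0.937) and Dlgap4 (0.930). The points share libraries and scaling, and the primary profile rests on few counts.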

How the data were processed

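The 8 libraries are total RNA from 4T1 tumours. The deposited values are whole-number counts per Ensembl gene, which the authors made before deposit; the submitters' processing notes name cutadapt 1.13, STAR, HTSeq 0.6.1p1, DESeq2 and the builds mm10 and hg19, without roles. Of 25006 identifiers 24942 had a symbol. Groups came from the labels. The members and gene lists were chosen with earlier results of these data known. Genes outside the members were named by a fixed rule: at most 4 per list and comparison past the threshold, and the 5 most alike per class. Outside this rule, Fas and Plppr3 were added beside results they touch. S100a9, Cxcr2 and Ly6g were named only as examples of the mature neutrophil list. 1 gene of the marker lists is not reported here.

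Counts were fitted in edgeR 4.0.16 (R 4.3.3) with TMM scaling, filterByExpr at a minimum count of 10, 4 group means and the quasi-likelihood test, with Benjamini-Hochberg adjustment over 15310 genes, a threshold of 0.05 and 4 residual degrees of freedom. The common biological coefficient of variation was 0.244. CPM are edgeR's, with the TMM factors. The script was tested on simulated counts. Positions are from GENCODE M21 and sequences from RefSeq, both GRCm38. Each line was grown in both hosts, so the labels pair lines across hosts: the difference between wild-type lines correlated between hosts at r = 0.087 and that between knockout clones at r = -0.353 over 15310 genes. Alternatives were RLE and total-count scaling, DESeq2 1.42.0, limma 3.58.1 voom, no filter, only the groups compared, the line block and each library left out.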

Additional observations from a re-analysis of the deposited data

Results flagged for a closer look

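Ltf, the lactoferrin gene, was set apart because its libraries moved in opposite directions in the 2 hosts: both knockout libraries lay above both wild-type libraries in NSG and below both in Balb/c. The knockout effect in Balb/c minus that in NSG was -3.33 on the log2 scale (SE 1.17, edgeR adjusted p = 0.161). Of all genes 7.14% showed the same pattern of libraries, so 1 of 8 members is near that share. Without the clone 69 library of Balb/c the difference passed the threshold, as did 15.1% of all genes.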

How the results depend on the processing

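The numbers of members past the threshold depended on the setting. In knockout against wild type in Balb/c, 0 passed, but 1 with RLE size factors, 6 with DESeq2, 6 without the filter, and 0 to 7 with 1 library left out. The share of all genes called rose with them, from 0.176% to 0.614%, 16.0%, 8.52% and, for the 7 without clone 69, 24.8%. In Balb/c against NSG in wild type, 6 passed, but 2 with the line as replicate block, and 0 to 7 with 1 library left out, against 31.5%, 13.5% and 5.45% to 40.5% of all genes. In Balb/c against NSG in knockout, 2 passed, but 0 with the line block, 0 with only the groups compared, 4 with the knockout clones crossed between hosts as blocks, a pairing chosen after seeing the data, and 0 to 5 with 1 library left out, against 31.1%, 18.8%, 16.8%, 35.5% and 15.6% to 29.6% of all genes. In the difference of the knockout effect, 0 passed, but 4 with DESeq2, 5 without the filter, 6 with the crossed clones, and 0 to 6 with 1 library left out, against 0.0%, 7.05%, 3.24%, 2.01% and at most 15.1% of all genes. In NSG 0 passed under each alternative. No paired analysis was possible within a host because the lines are nested in CD95 status. Total-count scaling moved the median of all genes by -0.16 in the wild-type host comparison and by -0.19 in the knockout one.

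Of 40 member results 34 kept their sign under each alternative. With 1 library left out, the NSG knockout value ran from -0.24 to 1.11 for Camp and from -0.92 to 0.81 for Lcn2, negative without the clone 54 library, and Lcn2 was also negative with limma voom (-0.051). The knockout host value ran from -1.28 to 0.80 for Mpo (positive without clone 54 of NSG, 0.80, or clone 69 of Balb/c, 0.54), from -2.35 to 0.71 for Ltf (positive without clone 54 of NSG, 0.71, or of Balb/c, 0.56) and from -0.28 to 1.11 for Mmp8 (negative without clone 69 of Balb/c). The Prtn3 difference ran from -0.17 to 0.45, negative without the vCas9 library of NSG (-0.05) or clone 54 of Balb/c. The causes were not tested. With 2 lines per group and 17 and 42 counts for Elane and Ctsg over all libraries, the differences of these genes were poorly determined. Their counting intervals pool the lines of a group and do not cover the spread between lines. In the wild-type host comparison both intervals lay above a ratio of 1 (1.98 to 559 for Elane, 1.004 to 6.35 for Ctsg). The other intervals given included 1.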
